A study of Mus musculus with 19 samples.

Results

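Translation initiation factors were described in the suprarenal aorta of mice infused for 24 h. Members were the genes whose symbol was Eif followed by a digit, leaving out the eIF2 kinases (Eif2ak), the eIF4E-binding proteins (Eif4ebp) and pseudogenes, and reaching 10 normalized counts in at least 4 mice. Of 20408 genes in the table, 49 had such a name and 48 reached the minimum. Eif4a3l2 did not, with at most 5.56 normalized counts in a mouse. The values are read counts of bulk poly(A) RNA, each divided by the size factor of its mouse. All animals were male ApoE-/- mice on a C57BL6 background that carried SMA-CreERT2, a tamoxifen-inducible Cre recombinase driven by the smooth muscle actin promoter, and had received tamoxifen before the infusion. The labels give an age of 8 weeks, which in the study's methods is the age at the first tamoxifen injection, so the mice were older at infusion. In IKKβ-/- mice both Ikkβ alleles were floxed, so that the deletion is limited to cells in which this promoter is active. IKKβ+/+ mice carried the Cre without the floxed alleles. Subcutaneous osmotic pumps delivered angiotensin II (Ang II) to 5 IKKβ+/+ and 5 IKKβ-/- mice, at a rate that the labels give as 500 to 1000 ng per min and kg and the study's methods as the upper of these for the sequenced aortas, and saline to 5 IKKβ+/+ and 4 IKKβ-/- mice.

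Initiation factors load the small ribosomal subunit onto an mRNA, find the start codon and join the large subunit. eIF2 carries the initiator tRNA as a GTP-bound complex, and eIF2B recharges eIF2 with GTP. The cap-binding protein eIF4E, the scaffold eIF4G and the RNA helicase eIF4A bring the mRNA, with eIF4B and eIF4H as helicase cofactors, and eIF3 holds these parts on the small subunit. Vascular smooth muscle cells raise protein synthesis in response to Ang II, a hypertrophic hormone of the vessel wall. Grouped by role, the members held 14 genes of eIF3, 6 of eIF1, eIF1A, eIF5 and eIF5B, 5 of eIF2B, 4 of eIF2, 4 of eIF4A, eIF4B and eIF4H, 3 each of eIF4E, eIF4G and of eIF5A with eIF6, and 6 associated genes. One of the latter, Eif2c5, is annotated in the table as a long intergenic non-coding RNA and is a member by its symbol alone.

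The libraries held 11382573 to 19906694 reads on genes. Ikbkb, which encodes IKKβ, ranged from 594 to 791 normalized counts in the 10 IKKβ+/+ mice and from 430.2 to 672 in the 9 IKKβ-/- mice, so the genotypes overlapped. Its log2 difference between genotypes was -0.39 with saline (limma, adjusted p = 0.0988) and -0.42 with Ang II (adjusted p = 0.173). All 6 smooth muscle markers were detected in every mouse. Of the markers of other cell types, all 5 of macrophages, of endothelium and of fibroblasts were detected in every mouse too, whereas the lymphocyte marker Cd3e was at 0 in 10 mice, the brown adipocyte markers Elovl3 and Ucp1 in 12 and 3, and the adipocyte marker Lep in 4. In such bulk RNA, fewer cells of a type and less RNA per cell cannot be told apart. Genes encoded in the mitochondrial genome took 5.99 to 9.07% of the normalized counts in saline IKKβ+/+ mice but 8.89 to 38.7% and 7.88 to 37.2% in saline and Ang II IKKβ-/- mice, with the highest shares in mice X2406 and X2385. Each group has its own run of mouse numbers and the labels name no batch, so handling that differed between groups cannot be told apart from the groups. Each mouse gave 1 library, and the p-values below measure the spread between these mice.

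Levels of the members spanned a wide range when set per length of merged exons. The mean over 19 mice ran from 4.33 normalized counts per kb for Eif3j2 to 1767 for Eif4g2, with a median of 241.6. Eif4g2, an eIF4G relative that lacks the eIF4E-binding part, was followed by Eif5a (1581 per kb), Eif3h (1308 per kb), Eif1 (1240.3 per kb) and Eif4a2 (937 per kb). Merged exons take in every annotated transcript of a gene, so the order per kb depends on the annotation. Eif3e and Eif3h had similar means, 2092 and 2108 normalized counts. Their merged exons were 6.72 and 1.61 kb, which put Eif3e at 311 per kb against 1308 for Eif3h. Eif4e, the cap-binding protein itself, stood at 130.5 per kb, and the 5 subunits of eIF2B lay between 36.7 (Eif2b3) and 241 (Eif2b5) per kb. A mean of at least 100 normalized counts was reached by 46 members, all but Eif2c5 (45.4) and Eif3j2 (10.3). Over the mice the coefficient of variation of a member had a median of 14.1%, from 7.47% for Eif2d to 40.4% for Eif3j2.

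**Figure D1:**
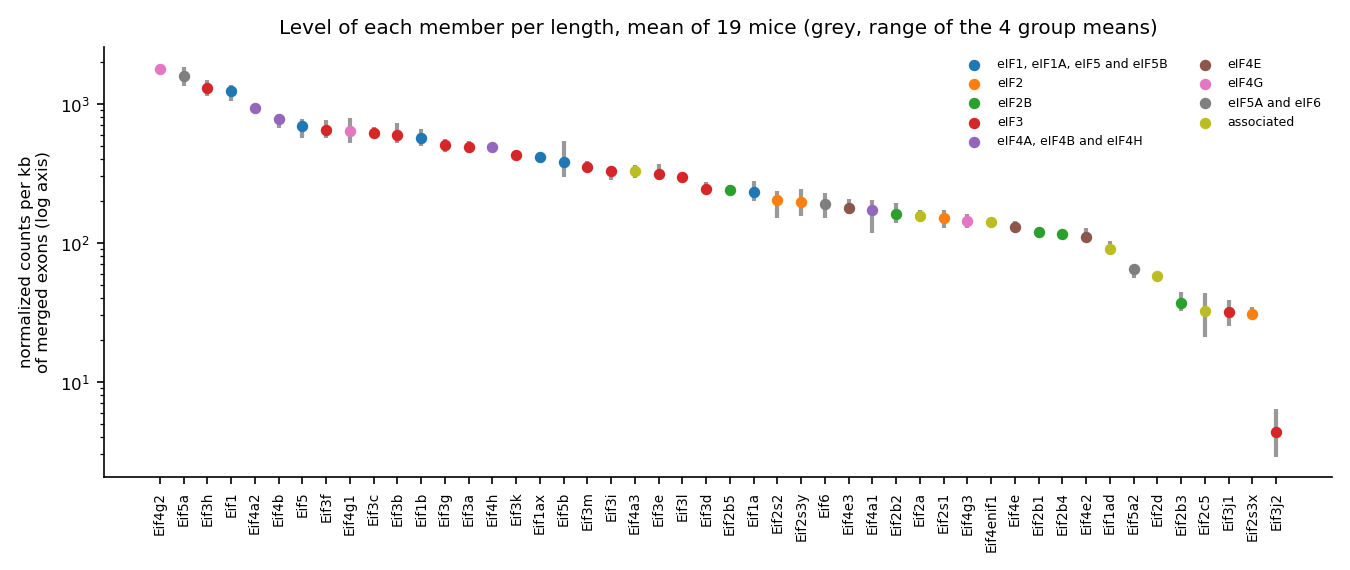
Mean level of each of the 48 members over 19 mice, as normalized counts per kb of merged exons on a log axis, coloured by complex. Grey lines span the 4 group means. Eif4g2 and Eif5a stand highest and Eif3j2 lowest.

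Some members share sequence with other genes, which bears on how surely reads can be assigned to them. In the annotated transcripts 24 members had no 84-base stretch, the length of a read, in common with another gene on either strand, and 10 shared over 10% of them. Matches on the same and on the opposite strand were not separated, although the libraries are stranded. The shared part was 86.2% for Eif3j2 (mainly with Eif3j1), 62.2% for Eif4a1 (mainly with the pseudogene Eif4a-ps4), 49.7% for Eif3j1, 34.9% for Eif2s3x and 16.1% each for Eif2s2 and Eif5b. How reads fitting several genes were counted is not given in the sources used here, so the values of these members are uncertain.

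Promoter sequence from RefSeq (GRCm38.p6, 250 bases before to 50 after the annotated start) was at hand for 39 members. Shown here are the 120 bases before the start of the 3 members that passed the test in a comparison, have a single annotated start and no annotated exon in that window, written 5′ to 3′. They are those of Eif4a1 (chr11:69672424-69672543, reverse strand), Eif3b (chr5:140419185-140419304, forward strand) and Eif3f (chr7:108934295-108934414, forward strand). Capitals mark CCAAT and CACGTG, the letters bound by NF-Y and by E-box factors such as the Myc family, read on either strand.
Eif4a1: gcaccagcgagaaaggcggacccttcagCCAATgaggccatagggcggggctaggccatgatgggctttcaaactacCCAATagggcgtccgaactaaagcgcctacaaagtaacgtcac
Eif3b: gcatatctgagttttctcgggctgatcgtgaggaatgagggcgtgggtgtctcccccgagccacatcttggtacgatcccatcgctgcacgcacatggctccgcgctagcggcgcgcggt
Eif3f: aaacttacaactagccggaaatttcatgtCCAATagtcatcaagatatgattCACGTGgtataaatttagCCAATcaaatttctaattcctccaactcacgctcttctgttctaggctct

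The window of Eif4a1 held CCAAT starting 92 and 43 bases before the start, that of Eif3f held CCAAT at 91 and 50 and CACGTG at 68, and that of Eif3b held none of the 6 motifs searched. Over the whole 250 bases before the start, in any annotated promoter of a gene and on both strands, CGGAAG, the core of ETS sites, was present in 18 of 39 members (46.2%), against 27.1% of the 11006 tested genes with a promoter sequence and 15.3% of all 27025 genes that have one. CACGTG was present in 9 of 39 members (23.1%), against 9.68% of the 11006 tested genes with a promoter sequence and 6.86% of all 27025 genes that have one. TGCGCA, part of the NRF1 site, stood in 11 of 39 members (28.2%), against 12.6% of the 11006 tested genes with a promoter sequence and 7.36% of all 27025 genes that have one. The shares for CCAAT were 30.8% of members and 40.0% of tested genes, and for AAGATGG, found in YY1 sites, 5.13% and 5.06%. No member held TGACGTCA, the cAMP-response element, against 2.91% of tested genes. An annotated start at a C followed by at least 4 pyrimidines, the form of terminal oligopyrimidine mRNAs, was found for Eif2c5, Eif2s3x and Eif3f, or 7.69% of members and 3.12% of tested genes. These are matches of letters, and none of the motifs contains another.

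In IKKβ+/+ mice, 7 of 48 members (14.6%) rose with Ang II, where 4.33% of all 14845 genes tested did, and 1 fell, where 4.33% of all genes did. The limits for a change, taken from the study's methods, were an adjusted p below 0.1 and more than 1.2-fold. The members that rose were the helicase Eif4a1, the elongation and initiation factor Eif5a, the large-subunit factor Eif6, the eIF3 subunits Eif3b, Eif3i and Eif3j2, and the cap-binding paralog Eif4e2. The one that fell was the non-coding Eif2c5. Log2 fold changes of the members had a median of 0.21, against 0.0056 over all genes tested, and 38 of 48 lay above 0, against 50.7% of all genes. In 7 members, 5 of them among those that rose, all 5 Ang II mice lay above all 5 saline mice, which 3.95% of all genes did.

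Eif4a1 (ENSMUSG00000059796.16, chr11:69666936-69672423; GRCm38, as are all positions here) had the largest rise among members with a mean of at least 50 normalized counts in a group. Its values were 506, 529.6, 478, 534 and 490.2 normalized counts in the 5 saline IKKβ+/+ mice and 1339.9, 764, 593, 1002 and 725 in the 5 Ang II mice. The groups did not overlap, and mice X2350 and X2358 were the highest. On the log2 scale the change was 0.74 ± 0.19 (SE), with 885 ± 294 against 508 ± 24.0 normalized counts (mean ± SD; limma, adjusted p = 0.0351). Because 62.2% of its read-length stretches are shared with other genes, this value carries the uncertainty given above. Its cofactor Eif4b, whose protein stimulates the helicase, had the lowest log2 fold change of the protein-coding members, -0.34 ± 0.14, and did not pass the test (limma, adjusted p = 0.172). Eif4b read 2642, 2617, 3706, 2695 and 3278 with Ang II and 3399, 3320.3, 4218, 4117 and 3778 with saline, and the groups overlapped. The second cofactor, Eif4h, had a log2 change of 0.12 ± 0.081, which also missed the test.

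Eif5a (chr11:69916714-69921958) encodes a protein that carries the modified residue hypusine and helps the ribosome form peptide bonds. It stood at 4934, 3719, 3572, 5696 and 4075 normalized counts with Ang II and at 3451, 3235, 3074, 3126 and 2963 with saline, with no overlap and the highest values in mice X2358 and X2350. The log2 change was 0.45 ± 0.11 (limma, adjusted p = 0.0314). Eif6 (chr2:155819832-155826925) encodes a factor that keeps the large subunit from joining too early and takes part in its assembly. Eif6 values were 754, 596, 508, 750.01 and 478 with Ang II and 409, 418, 407, 453 and 362 with saline, again without overlap, a log2 change of 0.57 ± 0.16 (limma, adjusted p = 0.0472).

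Among the 14 genes of eIF3, 3 rose and the rest did not pass, with a median log2 fold change of 0.20. Eif3b (chr5:140419328-140443360) had 2855, 2240.4, 2009, 2736 and 2366.6 normalized counts with Ang II and 1857, 1834, 1905, 1902 and 1463 with saline. Every Ang II mouse exceeded every saline mouse, and the log2 change was 0.44 ± 0.12 (limma, adjusted p = 0.0365). Eif3i, which binds Eif3b and Eif3g, had 1445, 1163, 1192, 1389 and 1202 against 971, 1190.1, 969, 1119 and 976, where the groups overlapped (log2 0.29 ± 0.10; limma, adjusted p = 0.0981). Eif3j2 had few reads, 16.1, 19.2, 11.0, 17.2 and 11.9 against 3.33, 5.56, 10.6, 5.70 and 8.77 normalized counts, and shares most of its sequence with Eif3j1, so its log2 change of 1.10 ± 0.35 is uncertain (limma, adjusted p = 0.0809). The largest subunit, Eif3a, read 5215, 3883, 3871, 4771 and 4455 with Ang II and 3841, 3588, 4518, 3735 and 3468 with saline, with overlap, and did not pass (log2 0.21 ± 0.10; limma, adjusted p = 0.249). The log2 values of Eif3e (-0.054), Eif3f (-0.087), Eif3h (-0.17), Eif3k (-0.0095) and Eif3m (-0.038) were below 0 and none passed. Eif3h was the lowest of these, at 1699, 1724, 2096, 1710.2 and 1917 with Ang II and 1759, 2436, 2041, 2191 and 1908 with saline, with overlap.

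All 4 genes of eIF2 and all 5 of eIF2B had log2 fold changes above 0 and none passed. Eif2s2, the beta subunit of eIF2, had the largest, 0.55 ± 0.20, with 2363.9, 1386, 1176, 1686 and 1082 normalized counts after Ang II and 992, 1040.1, 1088, 954 and 984 after saline (limma, adjusted p = 0.114). Eif2s1, the alpha subunit whose phosphorylation slows initiation, read 1095, 712, 681, 1078 and 725 with Ang II and 772, 719, 705, 679.8 and 516 with saline (log2 0.32 ± 0.14; limma, adjusted p = 0.194). Both subunits were highest in mice X2350 and X2358, and for both the groups overlapped. Eif2b5, the catalytic subunit of eIF2B, had 785, 659.6, 622, 757 and 558 with Ang II and 562, 612, 513, 601 and 580.2 with saline (log2 0.23 ± 0.12; limma, adjusted p = 0.298). In the eIF2B group the median was 0.23, with Eif2b3 the highest at 0.42 ± 0.17.

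For start codon selection, the 6 genes of eIF1, eIF1A, eIF5 and eIF5B had a median of 0.28 and none passed. Eif1, which guards against wrong start codons, had 3616, 2751, 2405.6, 2670.4 and 2559 normalized counts with Ang II and 2174, 2335, 2344, 2170.4 and 2022 with saline, without overlap (log2 0.33 ± 0.12; limma, adjusted p = 0.109). Eif1b likewise did not overlap, at 622 to 689.8 against 535 to 589.9, with a smaller log2 change of 0.20 ± 0.091 (limma, adjusted p = 0.226). Of the cap-binding genes, Eif4e2, whose protein represses the mRNAs it binds, had 1112, 881, 811, 1039 and 905 against 735, 786, 820.3, 795 and 684 and rose by 0.31 ± 0.10 on the log2 scale, with 1 Ang II mouse below the highest saline mouse (limma, adjusted p = 0.0871). Eif4e itself had 1009, 716, 750.3, 1021 and 786 against 802, 875, 795, 745 and 556, with overlap and no call (log2 0.18 ± 0.13). For the scaffold Eif4g1 the values were 6218, 5351, 4568, 6746 and 5760.1 against 5216, 4379, 5509, 4699.7 and 4009, also with overlap and no call (log2 0.26 ± 0.13). Eif2c5 was at 19.3, 40.6, 30.7, 25.8 and 32.8 normalized counts with Ang II and 77.2, 44.5, 40.5, 45.6 and 59.0 with saline, a log2 change of -0.82 ± 0.28 (limma, adjusted p = 0.0953), and mouse X2352 lay level with the lowest saline mouse.

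**Figure D2:**
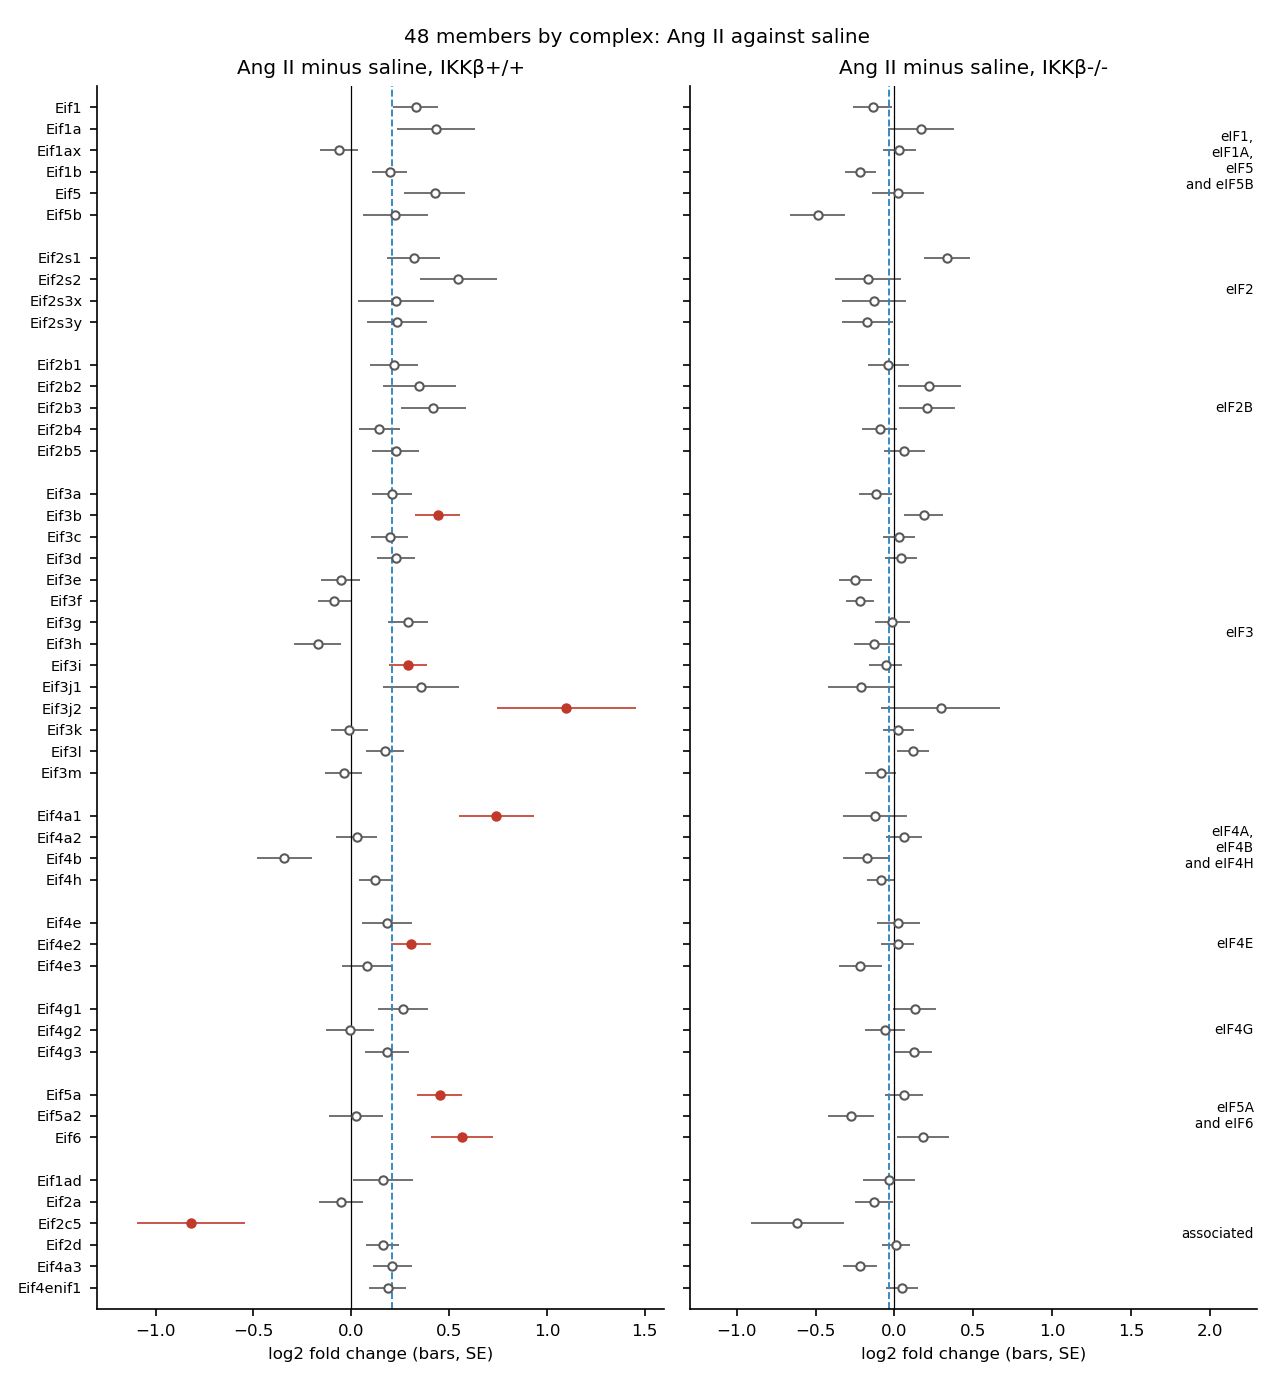
Log2 fold change of each member with Ang II against saline (points, limma estimate; bars, SE), in IKKβ+/+ mice on the left and IKKβ-/- mice on the right, ordered by complex. Filled red points passed the test and the dashed line is the median of the 48 members, 0.21 on the left and -0.037 on the right.

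The change in IKKβ+/+ mice was carried unevenly by the 5 Ang II mice. As the median over members of the log2 value minus the mean over all 19 mice, mice X2350 and X2358 stood at 0.29 and 0.28, whereas the other 3 Ang II mice lay between -0.050 and -0.0036. Saline IKKβ+/+ mice lay between -0.21 and -0.047. One of mice X2350 and X2358 was the highest of its group for 38 of 48 members. With every mouse in the fit, 8 members and 8.66% of all genes were called in either direction. Without mouse X2350 these were 0 members and 2.88% of all genes, without mouse X2358 1 member, Eif5a, and 2.99%, and without mouse X2356 18 members and 12.9%. Leaving out mouse X2378 left 2 members (4.21% of all genes), mouse X2370 or X2376 left 4 (5.84% and 4.71%), and mouse X2372, X2373 or X2401 left 5 (6.28%, 5.67% and 7.48%). In these fits the count over the whole table fell and rose with that of the members. Over the 19 fits that each left out 1 mouse, Eif5a passed in 18, Eif4a1 in 17, Eif3b and Eif6 in 16, Eif3j2 in 12, Eif4e2 in 10, and Eif3i and Eif2c5 in 8. With mice X2350 and X2358 both left out, 0 of 48 members passed (limma, smallest adjusted p = 0.400), the median log2 fold change was 0.10 and 37 of 48 lay above 0, while 16 genes of the whole table still rose and 17 fell. Eif4a1 then had a log2 change of 0.44, Eif5a of 0.26, Eif6 of 0.36 and Eif3b of 0.30.

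Markers of smooth muscle moved with the same mice. Their summed level (6 of 6 markers detected) was 448503 to 623963 normalized counts in Ang II IKKβ+/+ mice and 321310.1 to 430182 in saline IKKβ+/+ mice, with mouse X2358 at 623963 and mouse X2350 at 595245, the highest of all 19. Of these 6, Tagln and Cnn1 rose with Ang II. Endothelial markers (5 of 5) summed to 10523 to 20909 in the Ang II mice, with mice X2358 and X2350 at 10523 and 12145, and to 18470.4 to 32586 in the saline mice, and fibroblast markers (5 of 5) to 75356 to 126372 against 102010.3 to 147916. Skeletal muscle markers (4 of 5 tested) summed to 151 to 484 with Ang II, with mice X2358 and X2350 at 484 and 449.8, and to 47.8 to 180 with saline. Ckm rose among them (log2 2.93; limma, adjusted p = 0.000988), and Mylpf lay below 0. The mitochondrial share was 10.1 to 14.1% with Ang II and 5.99 to 9.07% with saline. The share of the nuclear RNA Malat1 was 0.141 to 0.495% with Ang II, highest in mouse X2350, and 0.0544 to 0.203% with saline. Their part in the change of the initiation factors was not tested.

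**Figure D3:**
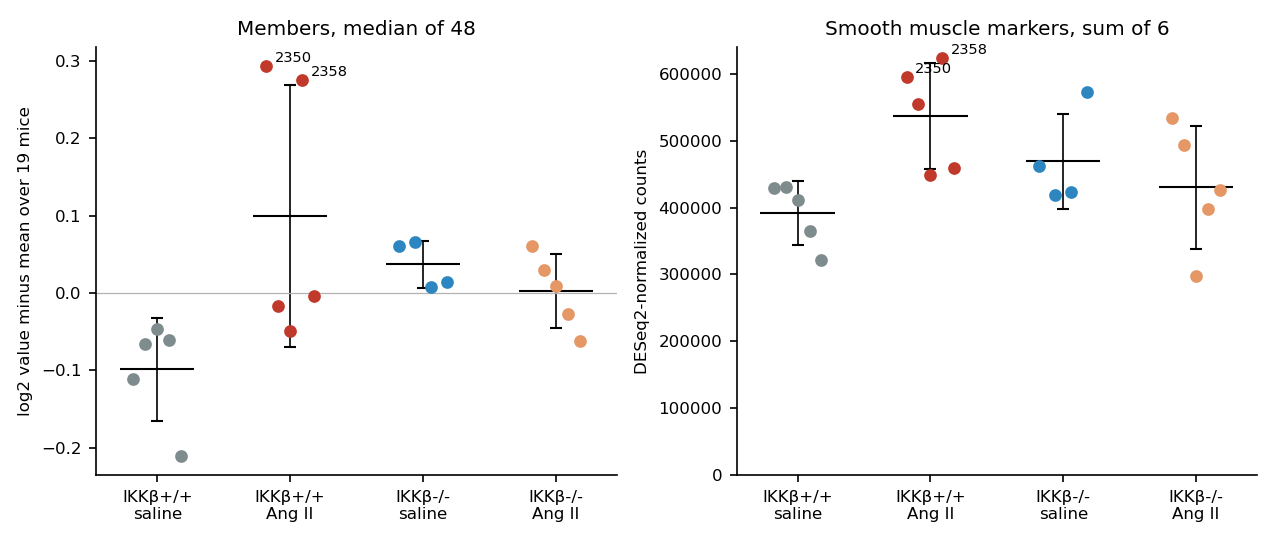
Left, the median over 48 members of the log2 value minus its mean over 19 mice, in each mouse. Right, the summed normalized counts of 6 smooth muscle markers in each mouse (points, mice; bars, mean and SD). Mice X2350 and X2358, with 0.29 and 0.28 on the left, are the highest in both panels.

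In IKKβ-/- mice none of the 48 members changed with Ang II at these limits (limma, smallest adjusted p = 0.145), where 5.29% of all genes did. At an unadjusted p under 0.05 there were 6 members (12.5%) against 17.8% of all genes, 1 above 0 and 5 below. DESeq2 on the recovered reads called 1 member lower, where it called 7.84% of all genes in either direction, and edgeR's quasi-likelihood test called 0 members and 4.86% of all genes. The median log2 fold change of the members was -0.037, and 22 lay above 0. Among members with a mean of at least 50 normalized counts in a group, the largest values above 0 were those of Eif2s1 (0.33 ± 0.15), Eif2b2 (0.22 ± 0.20) and Eif2b3 (0.20 ± 0.18). For Eif2s1, the Ang II mice had 812, 855, 815, 825 and 694 normalized counts and the saline mice 628, 649, 575 and 691, without overlap (limma, adjusted p = 0.240). It was the 1 member of 48 with all Ang II mice above all saline mice, as were 358 of all 14845 genes. All Ang II mice lay below all saline mice in 2 members, Eif3f and Eif4a3, and in 427 of all genes. Eif2b2 read 354, 368, 319, 241 and 262 with Ang II and 281, 279, 216 and 275 with saline, and Eif2b3 277, 287, 190.2, 233 and 228 and 235, 180.1, 204 and 218, both with overlap. At the other end stood Eif2c5 (-0.62 ± 0.29), Eif5b (-0.49 ± 0.18) and Eif5a2 (-0.27 ± 0.15). Eif5b, the GTPase that joins the subunits, had 4839, 3211, 3295, 3389.7 and 3519 with Ang II and 4401, 6123, 6970.3 and 3482 with saline, where 2 saline mice, X2403 and X2406, stood above the rest (limma, adjusted p = 0.145). Eif2c5 had 51.8, 53.2, 26.4, 38.5 and 29.6 and 82.0, 36.9, 55.8 and 73.3, and Eif5a2 261, 271, 259.9, 303 and 299 and 316, 278, 416 and 351, again with overlap. The members that rose in IKKβ+/+ mice had log2 changes here between -0.12 (Eif4a1) and 0.29 (Eif3j2), with Eif5a at 0.063 ± 0.12, Eif6 at 0.18 ± 0.17 and Eif3b at 0.18 ± 0.12. Eif4a1 read 1093, 541, 849, 776 and 576 with Ang II and 771, 959.7, 811 and 707 with saline in these mice, and Eif5a 4162, 3787, 4163, 3499 and 3401 and 3474, 3853, 3385 and 3821. Adipocyte markers, of which 5 of 6 passed the filter and all 5 rose with Ang II in IKKβ-/- mice, summed to 3024 to 38135 normalized counts against 1104 to 4372 with saline, and their part in these values was not tested.

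The difference between these responses was tested as an interaction, and no gene of the 14845 passed (0.0%), so no member did. Within the members 9 had an unadjusted p under 0.05 (18.8%), all 9 with a smaller or more negative Ang II change in IKKβ-/- mice, against 11.1% of all genes. The difference, IKKβ-/- minus IKKβ+/+, had a median of -0.21 over the members and of -0.0017 over all genes, and 41 of 48 lay below 0. It was -0.86 ± 0.28 for Eif4a1 (limma, adjusted p = 0.288), -0.71 ± 0.29 for Eif2s2 and -0.71 ± 0.24 for Eif5b. Above 0 the largest values were 0.20 ± 0.40 for Eif2c5, 0.16 ± 0.20 for Eif4b and 0.094 ± 0.14 for Eif1ax, each smaller than its SE. DESeq2 on the recovered reads called 1.88% of all genes and edgeR 0.0202%, with 0 members among them. Without mice X2350 and X2358 the median difference of the members was -0.12, and 9 of 48 lay above 0 (limma, smallest adjusted p = 0.898). The 8 calls in IKKβ+/+ mice and none in IKKβ-/- mice therefore do not show that the responses differed.

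With saline, 5 of 48 members (10.4%) were higher in IKKβ-/- than in IKKβ+/+ mice, where 3.4% of all genes were, and none was lower, where 2.07% were. The higher members were Eif5b, Eif4a1, Eif2s3y, Eif1b and Eif3f. Over the members the median log2 difference was 0.11, against -0.020 over all genes, and 37 lay above 0. In 10 of 48 members every IKKβ-/- mouse exceeded every IKKβ+/+ mouse, which 4.68% of all genes did. The saline IKKβ+/+ mice serve here and in the Ang II comparison above, so the results share these 5 animals.

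Eif5b (chr1:37998010-38055579) had 4401, 6123, 6970.3 and 3482 normalized counts in the 4 saline IKKβ-/- mice and 2837, 2699, 2940.3, 2783 and 3120.3 in the 5 saline IKKβ+/+ mice. The groups did not overlap, but the IKKβ-/- values spread widely, with mouse X2406 at the top and mouse X2409 at the bottom. The log2 difference was 0.82 ± 0.18 (limma, adjusted p = 0.0367). Eif4a1 read 771, 959.7, 811 and 707 in IKKβ-/- mice, above each of the IKKβ+/+ values given before (log2 0.67 ± 0.20; limma, adjusted p = 0.0875). Eif2s3y, the Y-linked gene for the gamma subunit of eIF2 (chrY:1010543-1028847), had 1037, 1032, 1126 and 840.3 against 529, 717, 617, 591 and 788 and did not overlap (log2 0.64 ± 0.16; limma, adjusted p = 0.0550).

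Eif1b (chr9:120492232-120495330), a close relative of Eif1, read 717, 869, 773 and 622 in IKKβ-/- mice and 546, 589.9, 553, 569 and 535 in IKKβ+/+ mice, a log2 difference of 0.41 ± 0.10 (limma, adjusted p = 0.0491). Eif3f (chr7:108934417-108942951), an eIF3 subunit, read 2296, 2389.3, 2074 and 2085 and 1621, 1756, 1629, 1774 and 1994, a difference of 0.33 ± 0.089 (limma, adjusted p = 0.0591). Both sets of groups were separate, and mouse X2403 was the highest IKKβ-/- mouse for both. Eif2s2 and Eif3j1 had log2 differences of 0.62 ± 0.21 and 0.60 ± 0.21 and missed the test (limma, adjusted p = 0.112 and 0.123). All 3 genes of eIF4G were below 0, with Eif4g1 the lowest at -0.33 ± 0.14, from 3735, 3602, 3133 and 4758 in IKKβ-/- mice and 5216, 4379, 5509, 4699.7 and 4009 in IKKβ+/+ mice, with overlap (limma, adjusted p = 0.191). Eif4g3 had 1255, 1416, 1380.00 and 1567 and 1758, 1537, 1707, 1227 and 1663 (log2 -0.16 ± 0.12), and Eif1ad 211, 295, 189 and 256 and 254, 249.3, 247, 295 and 226 (log2 -0.11 ± 0.16), neither past the test.

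This comparison, too, rested on single mice. Without IKKβ-/- mouse X2403 or without mouse X2406 no member passed, and the whole table then held 24 and 14 genes called higher in place of 504. Without mouse X2409, 13 members were higher and 1 lower, where 6.34% and 5.29% of all genes were. Without mouse X2380, 9 members and 4.34% of all genes were higher, and without mouse X2350 8 members and 3.88%. Leaving out mouse X2370 or X2373 left 1 member (0.66% and 0.465% of all genes), and mouse X2376 or X2401 left 2 (1.23% and 1.47%). The whole table moved in the same direction as the members in each of these fits. Over the 19 fits that each left out 1 mouse, Eif5b passed in 17, Eif1b in 15, Eif2s3y and Eif3f in 13 and Eif4a1 in 10. The median log2 difference moved little, to 0.12 and 0.15 without mouse X2403 and mouse X2406. Mouse X2406 had the highest mitochondrial share of all 19 mice, 38.7%, and the highest share of the nuclear RNA Malat1, 3.11%, and mouse X2403 followed with 0.905% Malat1, against 0.0544 to 0.203% in saline IKKβ+/+ mice. Macrophage markers (5 of 5) summed to 3385 to 4787 in saline IKKβ-/- mice and 5848 to 7818 in saline IKKβ+/+ mice. Smooth muscle markers (6 of 6) summed to 419157 to 572310 against 321310.1 to 430182. Endothelial markers (5 of 5) summed to 11316 to 24887 against 18470.4 to 32586. Those of fibroblasts (5 of 5) summed to 87606 to 117388 against 102010.3 to 147916. All 5 tested adipocyte markers had log2 differences below 0, and all 4 of skeletal muscle above 0. Of the tested markers of all lists, only Cd68, Adgre1 and Ptprc were called, each lower. The part of these in the difference was not tested.

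With Ang II, none of the 48 members differed between the genotypes (limma, smallest adjusted p = 0.168), where 0.128% of all genes did. At an unadjusted p under 0.05 there were 8 members (16.7%), 2 higher and 6 lower in IKKβ-/- mice, against 14.3% of all genes. DESeq2 called 1 member lower, where it called 3.51% of all genes in either direction, and edgeR called 0 members and 0.108% of all genes. Member log2 differences had a median of -0.10, and 14 lay above 0. The lowest members of at least 50 normalized counts were Eif4g1 (-0.47 ± 0.13; limma, adjusted p = 0.168), Eif1ad (-0.31 ± 0.15) and Eif3b (-0.30 ± 0.12). For Eif4g1 the IKKβ-/- mice had 4096, 4752, 3941, 3492 and 4382 normalized counts and the IKKβ+/+ mice 6218, 5351, 4568, 6746 and 5760.1, which overlapped in part. Eif3b read 2273, 2161, 1806, 1792 and 1839 in IKKβ-/- mice, and Eif1ad 295, 258, 231, 183 and 195 against 349, 307, 247, 305 and 227 in IKKβ+/+ mice, both with overlap. The highest were Eif2c5 (0.39 ± 0.28), Eif3h (0.26 ± 0.12) and Eif2s3y (0.24 ± 0.15). Eif3h read 1668, 2176, 2193, 2775 and 2206 and Eif2s3y 914, 741, 915, 915 and 983 in IKKβ-/- mice, the latter against 926, 867, 744, 854 and 481 in IKKβ+/+ mice. For both genes the groups overlapped. Without mice X2350 and X2358 the median was 0.034, on the other side of 0.

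**Figure D4:**
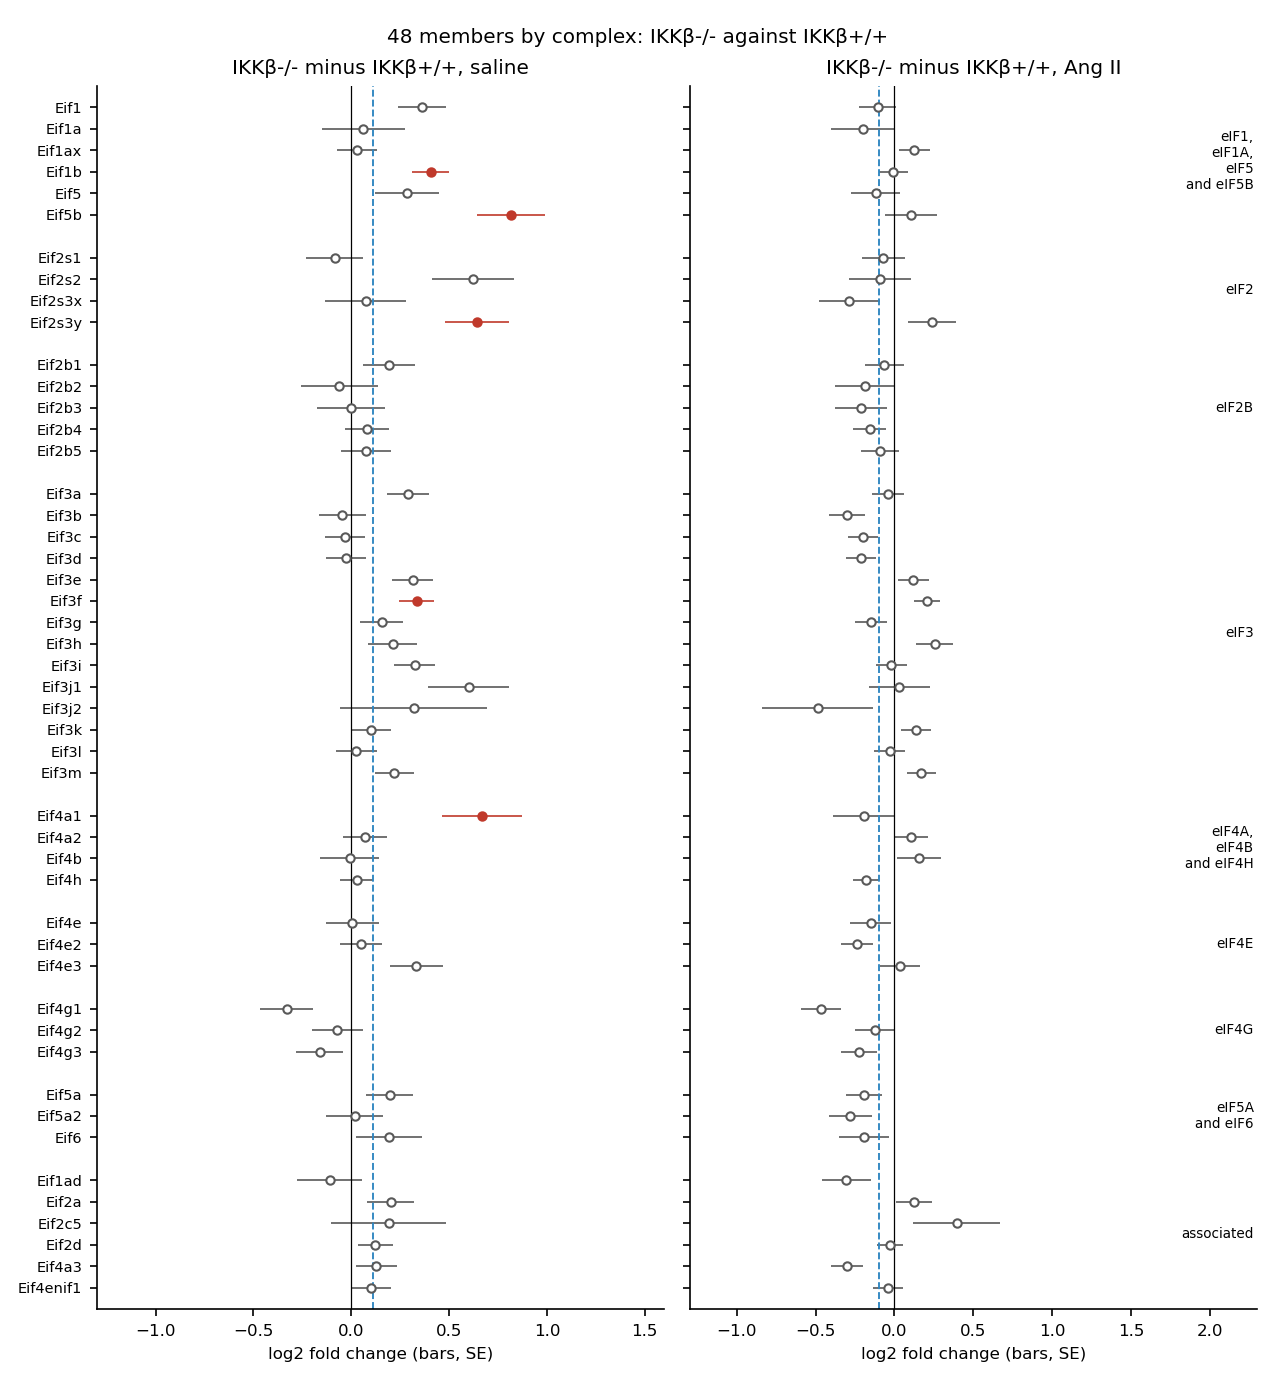
Log2 difference of each member between IKKβ-/- and IKKβ+/+ mice (points, limma estimate; bars, SE), with saline on the left and Ang II on the right, ordered by complex. The 5 filled red points on the left passed the test and none did on the right, and the dashed medians are 0.11 and -0.10.

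**Figure D5:**
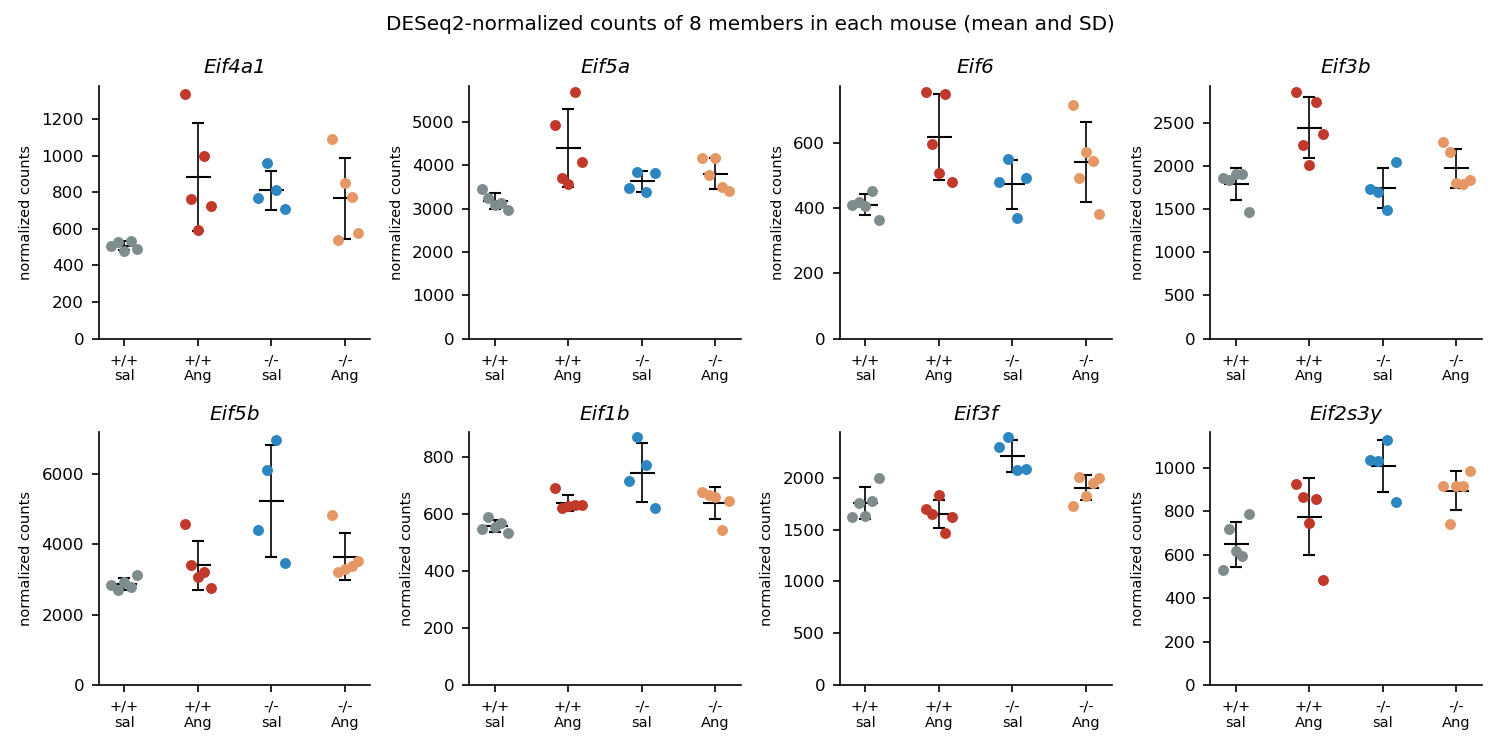
Normalized counts of 8 members in each mouse (points, mice; bars, mean and SD), by genotype (+/+ or -/-) and saline (sal) or Ang II (Ang). Saline IKKβ+/+ mice lie below every Ang II IKKβ+/+ mouse for Eif4a1, Eif5a, Eif6 and Eif3b, and saline IKKβ-/- mice lie above every saline IKKβ+/+ mouse for Eif4a1, Eif5b, Eif1b, Eif3f and Eif2s3y.

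Paralogs were set side by side, and their levels per kb carry the limit given above for merged exons. Per length, Eif4a2 was higher than Eif4a1 (937 against 171 normalized counts per kb), and its log2 changes were 0.027 ± 0.11 with Ang II in IKKβ+/+ mice and 0.072 ± 0.11 between genotypes with saline, where Eif4a1 passed in both. Of the read-length stretches, 62.2% of Eif4a1 but 7.07% of Eif4a2 are shared with other genes, so the gap in level is uncertain. Eif1 was above Eif1b (1240.3 against 569 per kb), and only Eif1b passed between genotypes with saline, while Eif1 had 0.36 ± 0.12 (limma, adjusted p = 0.118). For eIF2 gamma, the Y-linked Eif2s3y read 198 and the X-linked Eif2s3x 30.7 per kb, but 34.9% of the latter is shared with other genes. Eif5a2 stood at 64.3 per kb against 1581 for Eif5a and had a log2 change of 0.026 ± 0.14 with Ang II in IKKβ+/+ mice. Eif4g1 exceeded Eif4g3 (637 against 143 per kb), and Eif4e, Eif4e2 and Eif4e3 lay closer together at 130.5, 111 and 176 per kb. Whether paralogs differed in their response was not tested.

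How the members varied together within groups was described by the correlation of their deviations from the group means over the 19 mice, which share the depth and scaling of each library. The median over all 1128 pairs was 0.16, against -0.0010 over all pairs of tested genes, and 0.055 without mice X2350 and X2358. Pairs within a complex group had a median of 0.15 (152 pairs) and pairs between groups of 0.16 (976 pairs). The 5 genes of eIF2B varied most closely (0.55, 10 pairs), with those of eIF1, eIF1A, eIF5 and eIF5B at 0.52 (15 pairs) and eIF3 at 0.12 (91 pairs). Medians were 0.51 for eIF4G (3 pairs), 0.12 for eIF2 (6 pairs) and 0.0066 for eIF4E (3 pairs). Below 0 were the associated genes (-0.048), eIF4A, eIF4B and eIF4H (-0.23), and eIF5A with eIF6 (-0.23). The medians of single groups were not taken without mice X2350 and X2358. The highest single pair was Eif5b with Eif2s2 (0.89), and the lowest Eif4b with Eif4a1 (-0.69). Members most like Eif4a1 were Eif2s2 (0.86), Eif1a (0.80) and Eif6 (0.79). These are descriptions over 19 mice, with no test.

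Of 38 other genes of the translation pathway, 37 passed the filter. In IKKβ+/+ mice 3 of 37 rose with Ang II and 1 fell, where 4.33% of all genes did each. In IKKβ-/- mice 1 rose and 2 fell, where 2.59% and 2.69% of all genes did, and with saline 1 was higher and 2 were lower in IKKβ-/- mice, where 3.4% and 2.07% were. No gene of the list differed between genotypes with Ang II or in the interaction. Eif4ebp1, whose protein blocks eIF4E until mTORC1 phosphorylates it, rose in both genotypes, from 362 ± 28.2 to 484 ± 57.1 normalized counts in IKKβ+/+ mice (mean ± SD, log2 0.41 ± 0.14; limma, adjusted p = 0.0953) and from 361 ± 31.4 to 572 ± 132 in IKKβ-/- mice (log2 0.63 ± 0.15; limma, adjusted p = 0.0265). Eef1e1, a protein of the tRNA synthetase complex, rose by 1.09 ± 0.22 on the log2 scale in IKKβ+/+ mice (limma, adjusted p = 0.0111), and the elongation factor subunit Eef1g by 0.31 ± 0.10 (limma, adjusted p = 0.0889).

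Among genes that act on eIF2 phosphorylation, Impact, an inhibitor of the eIF2 kinase Gcn2, fell, with a log2 change of -0.37 ± 0.12 with Ang II in IKKβ+/+ mice (limma, adjusted p = 0.0897). Its change in IKKβ-/- mice was similar, -0.34 ± 0.13, and missed the test (limma, adjusted p = 0.177). Ppp1r15a, the inducible phosphatase subunit that restores eIF2, fell with Ang II in IKKβ-/- mice, from 1191 ± 241 to 568 ± 42.5 normalized counts (log2 -1.05 ± 0.25; limma, adjusted p = 0.0254), and Mknk2, a kinase of eIF4E, fell by 0.62 ± 0.18 there (limma, adjusted p = 0.0604). Between genotypes with saline, Pabpc4, a poly(A)-binding protein, was higher in IKKβ-/- mice (0.69 ± 0.21; limma, adjusted p = 0.0813), and Eif2ak3, the eIF2 kinase PERK (-0.48 ± 0.15; limma, adjusted p = 0.0967), and Eif4ebp2 (-0.52 ± 0.15; limma, adjusted p = 0.0778) were lower.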

How the data were processed

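Suprarenal aortas of 19 mice were sequenced, 1 library per mouse. The authors' poly(A) libraries (KAPA RNA HyperPrep, stranded) were read single-end on a NextSeq500, trimmed with Trimmomatic 0.35 and aligned to GRCm38 with STAR 2.7.1a and the Gencode annotation. The deposited signal is each gene's read count divided by the size factor of the mouse from DESeq2 1.30.1, called the normalized count here. In 100.0% of values a whole read (within 0.01) could be recovered from these steps, giving 11382573 to 19906694 reads on genes per mouse.

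Genes with a value of at least 10 in at least 4 mice (14845 of 20408) were fitted in R 4.3.3 with limma 3.58.1 (lmFit, eBayes with trend) on log2(value + 1), which understates changes of low genes, with 1 mean for each of the 4 groups. Tests were two-sided with Benjamini-Hochberg adjustment over all genes tested, and calls needed an adjusted p below 0.1 and more than 1.2-fold change. The fit was checked on simulated counts. Alternatives were a pseudocount of 4, no filter, TMM scaling, array quality weights, only the groups compared, each mouse left out, a limit of 0.05 on the adjusted p, no limit on the fold, and count tests of the recovered reads with DESeq2 1.42.0 or edgeR 4.0.16. Leaving out mice X2350 and X2358, or X2385 and X2406, was added after seeing the data. The libraries of a group were compared pair by pair, and no pair of the 36 agreed within sampling noise.

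Members, gene lists and motifs were chosen with earlier results of these data known. Named with the value of every mouse were the members called, the 3 largest changes in each direction per comparison among members with a mean of at least 50 in a group, and 1 or more members per complex named for their role (Eif1, Eif2s1, Eif2b5, Eif3a, Eif4a1, Eif4e, Eif4g1, Eif5a and Eif6). Other genes were named as paralogs, as called genes of the pathway list, or after their values were seen. Gene positions and exon lengths came from the GENCODE M21 annotation of GRCm38 and promoters from RefSeq. Groups were taken from the labels.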

Additional observations from a re-analysis of the deposited data

Results flagged for a closer look

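A mouse stood apart from the others of its group, by the gap to its nearest neighbour against the range of the group, in 9 of 112 groups of values tested, where chance sets about 1 in 20 apart. Mouse X2350 was high within the Ang II IKKβ+/+ group for Eif1, at 3616 normalized counts against 2405.6 to 2751 in the other 4 mice, and for Eif1b, at 689.8 against 622 to 631. Mouse X2378 was low among the saline IKKβ+/+ mice for Eif3b, at 1463 against 1834 to 1905, and the change of Eif3b with Ang II was no longer called without it. In the Ang II IKKβ-/- group, mouse X2380 was high for Eif2s2, at 2109.9 against 1141 to 1386, and for Eif5b, at 4839 against 3211 to 3519. 3 other values of that group were low. Eif1b read 543 in mouse X2385 against 645 to 676. Eif2s1 read 694 in mouse X2386 against 812 to 855. Eif2s3y read 741 in mouse X2383 against 914 to 983. Among the 4 saline IKKβ-/- mice, Eif2b2 was low in mouse X2406, at 216 against 275 to 281.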

How the results depend on the processing

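The number of members called moved with the settings more than the median of the members did. For Ang II in IKKβ+/+ mice, 8 members were called and 8.66% of all genes. The counts were 4 with no filter on low values (5.01% of all genes), 4 at an adjusted p under 0.05 (4.3%), 13 by DESeq2 (12.7%), 0 without mice X2350 and X2358 (0.222%), and 0 to 18 with 1 mouse left out (2.88% and 12.9% at these ends). Between genotypes with saline, 5 were called and 5.47% of all genes. Here the counts were 11 with array quality weights (12.8% of all genes), 9 with only the groups compared in the fit (9.57%), 11 by DESeq2 (9.68%), 2 at an adjusted p under 0.05 (0.916%), 8 without mice X2350 and X2358 (6.31%), 0 without mice X2385 and X2406 (0.128%), and 0 to 14 with 1 mouse left out (0.162% without X2406, 0.445% without X2403 and 11.6% without X2409). The comparisons with no call gave 1 each by DESeq2 for Ang II in IKKβ-/- mice and for the genotypes with Ang II, against 7.84% and 3.51% of all genes, and up to 3 without mouse X2409 (6.66% of all genes) and up to 2 without mouse X2356 (3.73%). The count for the difference of the Ang II effects was 0 under every setting run. The median over members kept its sign under every setting, except for Ang II in IKKβ-/- mice, where leaving out 1 mouse gave -0.065 to 0.0093, and for the genotypes with Ang II, where it was 0.034 without mice X2350 and X2358. The difference of the Ang II effects in Eif2c5 was 0.20 and turned to -0.16 with array quality weights, -0.040 without mice X2350 and X2358 and -0.023 without mouse X2403 (0.36 at most with 1 mouse left out), within its SE of 0.40. Of the other values of named members over these settings, 1158 kept their direction and side of the threshold, 105 were no longer past it and 24 came to pass it. For settings that leave out mice, fewer samples were fitted. For the others the cause was not tested. No paired analysis was possible because each mouse number occurs in a single group.

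Groups of 4 or 5 mice and 11382573 to 19906694 reads per mouse limit the smallest change that can pass, most of all for Eif3j2 and Eif2c5, which had the fewest reads. Reads of Eif4a1 and other genes with shared sequence cannot be told apart in the shared part. Array quality weights, which follow the spread of a mouse over all genes, were lowest for mice X2406, X2380 and X2350.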
